A study of Mus musculus with 6 samples.

Results

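The angiopoietins and vascular endothelial growth factors (VEGFs) are secreted proteins that act on endothelial cells, and 10 of their genes were examined in bone marrow stromal cells that had been given apoptotic thymocytes. The set holds 8 ligand genes (Angpt1, Angpt2, Angptl2, Angptl4, Vegfa, Vegfb, Vegfc and Pgf) and 2 receptor genes (Tek and Flt1), out of 53735 features in the table, and each was found by its symbol. The set was chosen by a measured value, the strong decrease of Angpt2 in fed cells, so the fed and control values of its members are given here as a description, with no test of their own. All 10 members had enough reads to enter the fit across genes, which covered 13092 genes.

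The study asked what phagocytosis does to cells of the mesenchymal and osteoblast lineage of mouse. The fed group comprised 3 libraries of wild-type stromal cells kept for 24 h with 5000000 dye-labelled apoptotic thymocytes per well at 5% oxygen, from which cells carrying the dye were sorted. The control group comprised 3 libraries of wild-type stromal cells that received no thymocytes and were also sorted; the labels give 24 h for them as well. Both groups came from marrow cells sorted as negative for lineage markers, CD45 and CD31 and positive for CD51, which were grown at 2% oxygen to passage 2 or 3 before use. The labels do not say at which oxygen level the control wells spent those 24 h or whether their medium was changed, so these conditions and the feeding cannot be told apart. Only dye-carrying cells of the fed wells entered the fed libraries, so this selection of cells cannot be told apart from the feeding. Strain and age are not stated either, nor is it said that replicates came from separate animals or cultures, so the errors below measure the spread between these libraries, which may be technical. The libraries held 19069074 to 22410047 counts. Control replicate 3 stood apart on the second principal component (14.3% of the variance), and leaving it out changed no call of a member. In these bulk samples, fewer cells of a type and less RNA per cell cannot be told apart.

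Angiopoietins signal through the receptor tyrosine kinase Tek, also called Tie2. Angpt1 is its activating ligand, which keeps vessels quiescent, and in marrow it is made by stromal cells. Angpt2 binds the same receptor and often opposes Angpt1, and it is best known as a product of endothelial cells at sites of vessel remodelling. The VEGF ligands bind Flt1, Kdr and Flt4. Vegfa drives endothelial growth mainly through Kdr, Vegfb and Pgf bind Flt1, and Vegfc acts mainly on lymphatic endothelium through Flt4. The angiopoietin-like proteins share the fibrinogen-like domain of the angiopoietins but do not bind Tek.

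The members are related genes, so it matters whether their reads can be told apart. Among 21 pairs of related coding sequences (GENCODE M21 transcripts, GRCm38), the longest identical run was 18 bases, between Vegfa and Vegfb. Angpt1 and Angpt2 shared at most 17 bases in a row, near the end of their coding sequences of 1497 and 1491 bases. That stretch is shown because it holds the longest run of identical bases between these ligands, with flanking bases, the stop codon at the 3' end and capitals where both genes agree (34 of 50 positions).
Angpt1: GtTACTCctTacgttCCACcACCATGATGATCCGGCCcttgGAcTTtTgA
Angpt2: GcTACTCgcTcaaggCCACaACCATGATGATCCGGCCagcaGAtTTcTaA
Other genes overlap some members on the opposite strand, and the strand setting of the authors' counting is not stated in the sources used here. Angpt1 (chromosome 15, 42424723 to 42676977, minus strand) shares 737 of its 5205 exonic bases with the antisense gene Gm17473. Angpt2 (chromosome 8, 18690263 to 18741562, minus strand) lies within the span of Mcph1, a gene of the plus strand, and shares 0 exonic bases with it. Mcph1 moved the other way from Angpt2, with 28.8 ± 1.05 CPM (counts scaled to a common library total after TMM normalization) in fed cells and 22.7 ± 0.462 CPM in control cells (SD, n = 3 each, adjusted p = 8.90e-05). Angptl2 lies within the span of Ralgps1, a gene of the minus strand, and shares 0 exonic bases with it. Ralgps1 had 3.83 ± 0.520 CPM in fed cells and 4.37 ± 0.0676 CPM in control cells (SD, n = 3 each, adjusted p = 0.288).

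Angpt2 had the widest difference of the set and was much lower in fed cells. It had 4.71, 3.40 and 4.01 CPM in the 3 fed libraries, against 17.0, 14.5 and 13.2 CPM in the 3 control libraries. Every fed library was below every control library. The level in fed cells was 0.270 of that in control cells (95% interval 0.227 to 0.322), a log2 fold change of -1.89 ± 0.12 (SE). Among the genes tested, 7 had a more negative log2 fold change. These values rest on 74 to 95 counts per fed library and 250 to 366 per control library.

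Angpt1 was also lower in fed cells, but by far less. It had 28.5, 26.9 and 28.0 CPM in fed cells, against 37.0, 33.9 and 37.1 CPM in control cells. The groups did not overlap, and the log2 fold change was -0.37 ± 0.057 (SE). Because Angpt2 differed more than Angpt1, the balance of both ligands shifted: per kilobase of exon, Angpt1 stood at 4.29, 5.59 and 4.95 times Angpt2 in the fed libraries and at 1.55, 1.65 and 2.00 times in the control libraries. The activating ligand was therefore the more abundant transcript in all 6 libraries. Tek, the receptor of both, had 2.92, 2.62 and 3.22 CPM in fed cells and 2.83, 3.45 and 2.84 CPM in control cells. These ranges overlapped, and the 95% interval of its log2 fold change reached from -0.39 to 0.27.

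**Figure D1:**
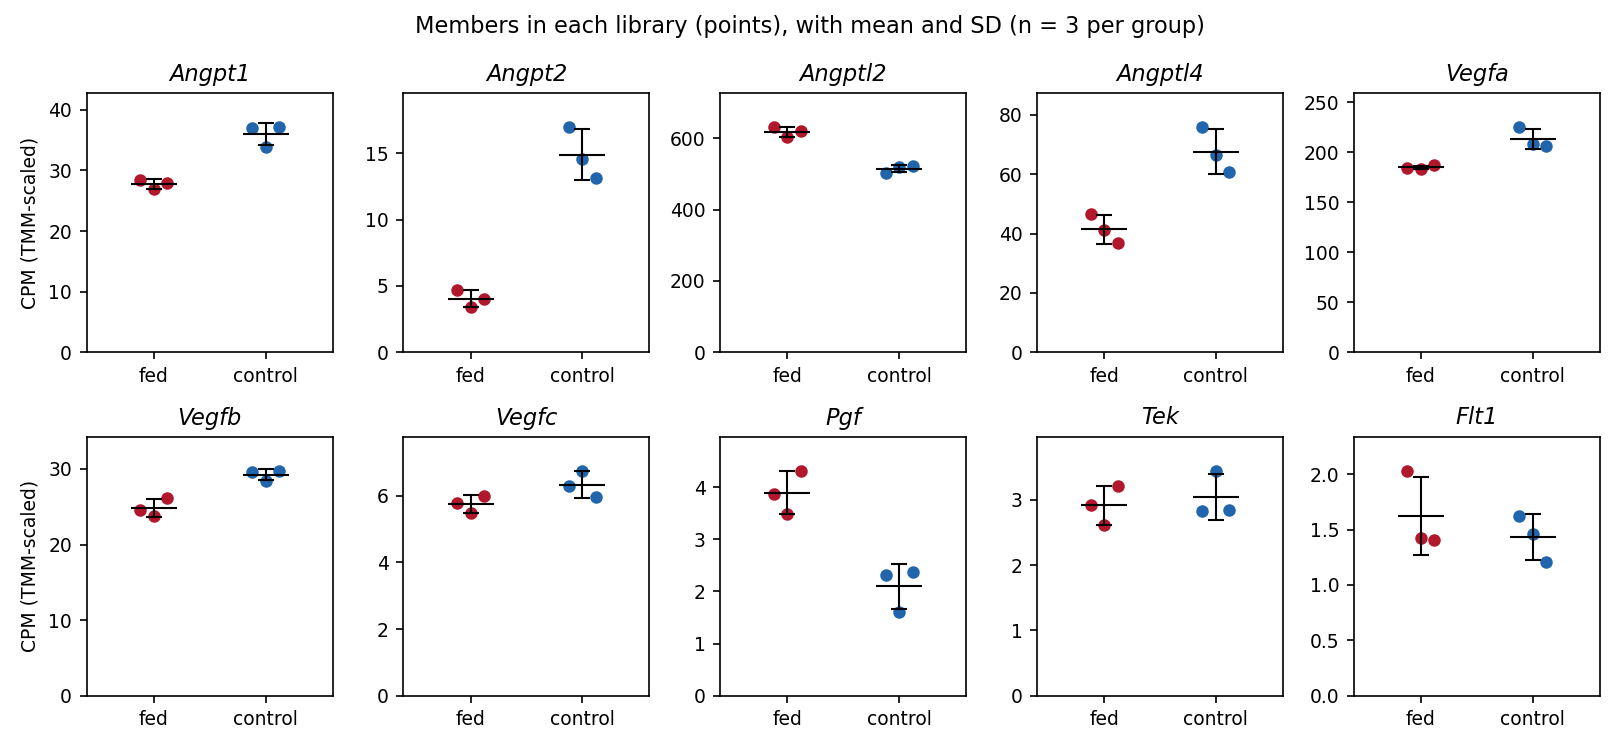
CPM of the 10 members in each fed (left) and control (right) library, with the mean and SD over 3 libraries; each panel has its own linear axis from 0. Angpt2 stands at 3.40 to 4.71 CPM in fed and 13.2 to 17.0 CPM in control cells, while the points of Vegfc, Tek and Flt1 overlap between the groups.

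The angiopoietin-like genes went in opposite directions. Angptl2, a secreted protein linked to inflammation, was the most abundant member and was higher in fed cells, at 631, 602 and 622 CPM in the fed libraries against 503, 520 and 522 CPM in the control libraries. Its groups did not overlap, and the difference was a modest 1.20-fold (95% interval 1.14 to 1.27). Angptl4, which inhibits lipoprotein lipase and is induced by hypoxia and by PPAR factors, had 46.4, 41.3 and 36.7 CPM in fed cells against 75.9, 66.4 and 60.7 CPM in control cells. Here every fed library was lower, with a log2 fold change of -0.71 ± 0.11 (SE). Per kilobase, Angptl2 stood at 8.47 ± 0.963 times Angptl4 in fed cells and 4.33 ± 0.560 times in control cells (SD, n = 3 each).

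Of the VEGF ligands, Vegfa and Vegfb were slightly lower in fed cells, Vegfc overlapped and Pgf was higher. Vegfa had 184, 183 and 187 CPM in fed cells against 225, 208 and 207 CPM in control cells, a log2 fold change of -0.21 with an SE of 0.039. Vegfb had 24.6, 23.7 and 26.2 CPM in fed cells against 29.6, 28.4 and 29.8 CPM in control cells, a log2 fold change of -0.24 ± 0.059 (SE). In both genes the fed libraries lay below all control libraries, and their ratio per kilobase hardly differed, with Vegfa at 2.79 ± 0.108 times Vegfb in fed cells and 2.73 ± 0.126 times in control cells (SD, n = 3 each). Vegfc had 5.80, 5.47 and 5.99 CPM in fed cells and 6.30, 6.75 and 5.95 CPM in control cells. One control library lay inside the fed range, and the 95% interval of the log2 fold change was -0.37 to 0.09.

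Pgf, placental growth factor, was the member with the largest increase. It had 3.87, 3.49 and 4.32 CPM in fed cells against 2.32, 1.61 and 2.37 CPM in control cells. The groups did not overlap, and the level in fed cells was 1.86 times that in control cells (95% interval 1.45 to 2.39), from 76 to 98 counts per fed and 34 to 50 counts per control library. Flt1, the receptor that Pgf and Vegfb bind, had 2.03, 1.43 and 1.41 CPM in fed cells and 1.62, 1.46 and 1.21 CPM in control cells. With 23 to 41 counts per library, its log2 fold change of 0.16 had a 95% interval of -0.30 to 0.63, so a moderate difference either way was not detectable at this depth.

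**Figure D2:**
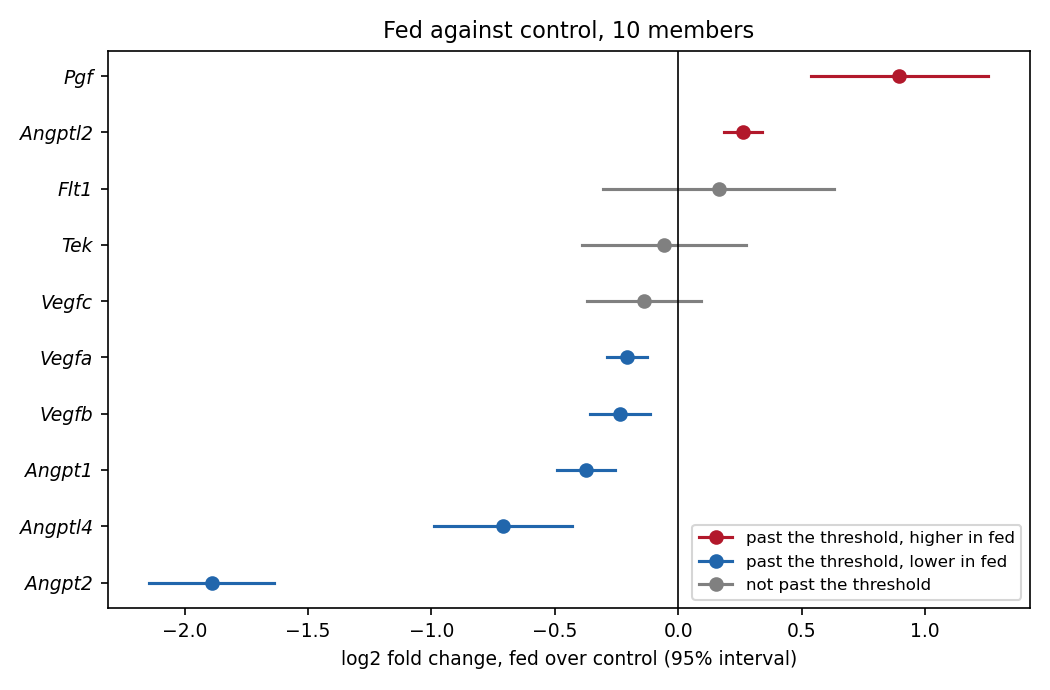
Log2 fold change of each member, fed over control, with its 95% interval from the fit across all genes; red and blue mark members past an adjusted p of 0.05. Angpt2 lies at -1.89, Pgf at 0.90, and the intervals of Vegfc, Tek and Flt1 include 0.

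In the fit across all genes, 39.5% of 13092 genes passed an adjusted p of 0.05, 20.5% higher and 19.0% lower in fed cells. Of the 10 members, 2 passed as higher, 5 as lower and 3 did not pass. The groups did not overlap for 7 members, and for 49.1% of all genes tested. The median log2 fold change was -0.17 over the members and -0.01 over all genes tested, and the median size without sign was 0.25 and 0.16. The set was picked from this contrast, so nothing is read from these counts.

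Levels can be compared between genes only per length, here as CPM per kilobase of merged exons. In fed cells the order was Angptl2 (98.4 ± 2.32), Vegfa (43.1 ± 0.454), Vegfb (15.5 ± 0.770), Angptl4 (11.7 ± 1.37), Angpt1 (5.34 ± 0.161), Vegfc (2.35 ± 0.107), Pgf (1.34 ± 0.142), Angpt2 (1.09 ± 0.177), Tek (0.620 ± 0.0631) and Flt1 (0.120 ± 0.0263; SD, n = 3). Among these neighbours, Pgf and Angpt2 overlapped and the others did not. In control cells Angptl4 (19.1 ± 2.16) stood beside Vegfb (18.2 ± 0.447) with overlapping ranges, and Angpt2 (4.04 ± 0.520) stood above Vegfc (2.59 ± 0.164). Pgf (0.723 ± 0.147) and Tek (0.645 ± 0.0750) overlapped there. Angpt2 thus took the sixth place of the members in control cells and the eighth in fed cells, while Angptl2 and Vegfa led and Tek and Flt1 came last in both groups.

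**Figure D3:**
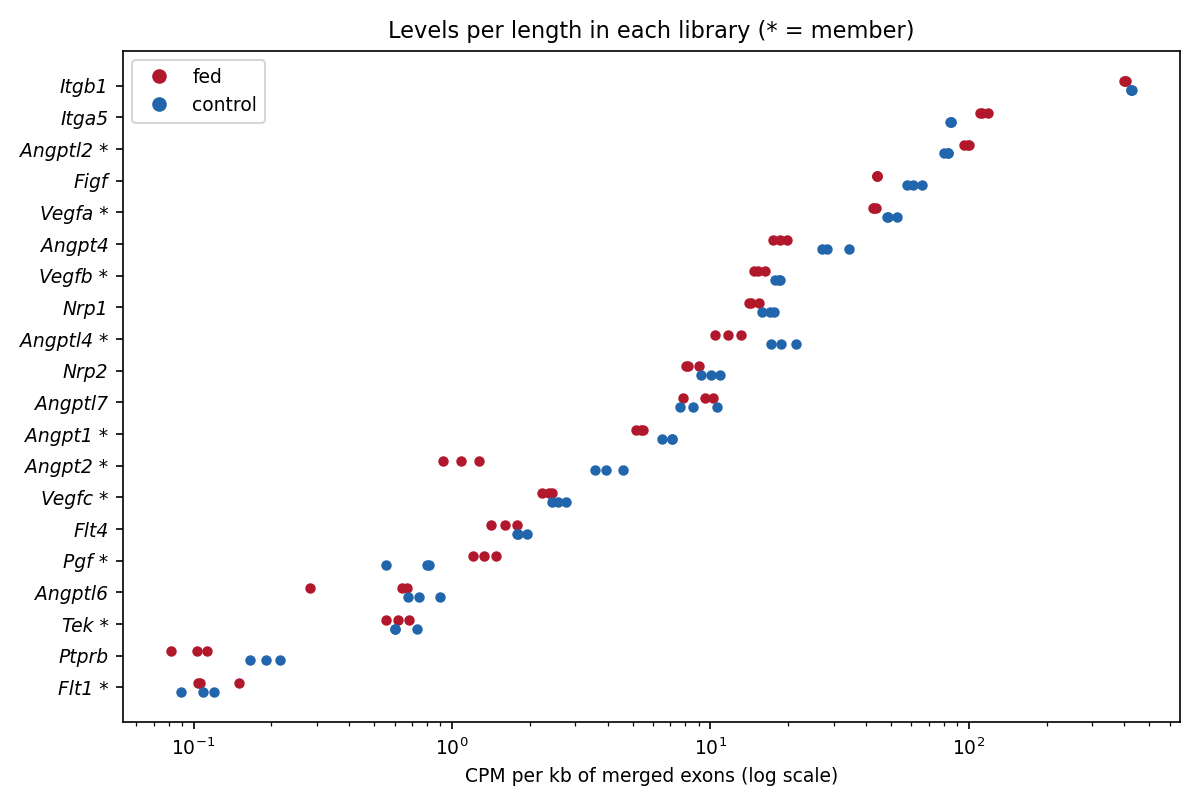
CPM per kilobase of merged exons in each fed and control library on a log axis, for the members (asterisk) and the other family ligands and receptors with at least 100 counts in all. Vegfa and the VEGF-D gene Figf lie close together, and the receptors Tek and Flt1 lie below 1.

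The remaining ligands of these families fill in the picture. Figf, the VEGF-D gene, had 105.9, 106.6 and 106.1 CPM in fed cells against 159, 139 and 147 CPM in control cells. It fell in fed cells by 0.48 on the log2 scale (SE 0.044, adjusted p = 4.43e-08). Per kilobase, Figf made up 40.8% to 42.1% of the summed VEGF family transcripts (Vegfa, Vegfb, Vegfc, Pgf and Figf) in fed cells and 45.4% to 47.1% in control cells. Vegfa made up 40.4% to 40.6% in fed cells and 36.8% to 38.1% in control cells. The share of Pgf was 1.14% to 1.38% in fed cells and 0.434% to 0.624% in control cells. Angpt4, a further Tek ligand, was more abundant per kilobase than Angpt1 in every library. It had 46.2, 40.8 and 43.3 CPM in fed cells against 80.1, 66.0 and 63.1 CPM in control cells and fell by 0.69 on the log2 scale (SE 0.098, adjusted p = 0.00114). The list holds 7 such genes, of which 4 were tested, 2 were lower and 0 higher. This count and those of the lists below stand beside 20.5% higher and 19.0% lower among all genes tested. Angptl6 (log2 fold change -0.52) and Angptl7 (0.04) did not pass the threshold.

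The endothelial receptors Kdr and Tie1 were nearly absent. Kdr had 2, 0 and 1 counts in the fed libraries and 0 in each control library, and Tie1 had 0 in all 6. The endothelial markers Cdh5, Emcn and Cldn5 were at 0 counts in every library as well, and Pecam1, which encodes CD31, had 1 to 3 counts in fed and 0 to 4 in control libraries. The summed level of the 12 endothelial markers was 10.6 to 12.1 CPM in fed cells and 12.1 to 13.0 CPM in control cells, mostly from Erg, Vwf, Egfl7 and Ptprb. Of the 5 endothelial markers tested, 2 were lower and 0 higher. Vwf fell to 1.70 ± 0.461 CPM in fed cells, against 2.79 ± 0.377 CPM in control cells (SD, n = 3 each, adjusted p = 0.00702). Ptprb fell by 0.94 on the log2 scale. Erg and Egfl7 lay higher in fed cells (log2 fold changes 0.25 and 0.36) and Esam hardly differed (-0.03), none past the threshold. The median log2 fold change of the tested markers was -0.03. Most stromal markers were abundant, though Lepr averaged 3.83 CPM in fed and 4.17 CPM in control cells. Itgav, which encodes CD51, and Prrx1 differed little (log2 fold changes -0.06 and -0.01, neither past the threshold). Of the 10 stromal markers, 1 was higher (Nt5e, 0.47) and 5 were lower, Pdgfra (-0.31) and Ly6a (-0.25) among them. The 10 summed to 31358 to 33264 CPM in fed cells and 35668 to 37091 CPM in control cells. Of 10 thymocyte markers other than Thy1, which stromal cells also express, the summed counts were 28, 14 and 33 in the fed libraries and 9, 15 and 17 in the control libraries. Lck supplied most of the control counts, with 7, 4 and 12 counts in fed and 8, 11 and 15 in control libraries. The other 9 markers summed to 21, 10 and 21 counts in the fed libraries and 1, 4 and 2 in the control libraries, with every fed library above every control library. The 8 macrophage markers summed to 13.9 to 16.2 CPM in fed cells and 9.59 to 11.0 CPM in control cells. Of the 3 tested, 1 was higher and 0 lower. That was Lyz2, at 7.47 ± 0.866 CPM in fed and 3.32 ± 0.659 CPM in control cells (log2 fold change 1.17, adjusted p = 1.61e-06). Csf1r (log2 fold change -0.09) and Cd68 (0.18) did not pass. Adgre1, which encodes F4/80, had 5, 3 and 3 counts in fed libraries and 0 in each control library. Of the 7 mural markers, 6 were tested, Cspg4 was higher (log2 fold change 0.75) and Pdgfrb (-0.29), Abcc9 (-0.65) and Notch3 (-0.51) were lower, and their sum was 822 to 853 CPM in fed cells and 967 to 1015 CPM in control cells. Whether such cells had a part in the members' values was not tested.

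The neuropilin co-receptors were expressed and fell slightly in fed cells. Nrp1 and Nrp2, the neuropilins that bind VEGF ligands beside their main receptors, fell by 0.20 and 0.26 on the log2 scale (adjusted p = 0.00136 and 0.00658). Nrp1 averaged 143 ± 7.16 CPM in fed cells and 164 ± 8.54 CPM in control cells (SD, n = 3 each). Ptprb, the phosphatase that restrains Tek, was low and fell to 1.32 ± 0.210 CPM in fed cells, against 2.55 ± 0.334 CPM in control cells (adjusted p = 7.79e-04). Itga5, the integrin subunit that can bind angiopoietins and Angptl2, rose by 0.42 (adjusted p = 2.66e-08). Flt4, the receptor of Vegfc, had 13.2 ± 1.52 CPM in fed cells and 15.2 ± 0.754 CPM in control cells and missed the threshold (adjusted p = 0.0544), though it passed without fed replicate 1 (adjusted p = 0.0130). In this list of 9 genes, 6 were tested, 1 was higher and 3 lower.

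Genes that process or release the ligands went both ways. Ccbe1, which assists the processing of Vegfc, rose in fed cells, at 31.1, 26.4 and 25.8 CPM against 15.0, 17.0 and 13.2 CPM in control cells (log2 fold change 0.87 ± 0.091 SE, adjusted p = 2.47e-06). Plau, the urokinase gene, rose by 0.37 (adjusted p = 1.41e-05), and the matrix proteases Mmp14 and Mmp2 fell by 0.41 and 0.18 (adjusted p = 1.12e-05 and 0.00164). Plat, the tissue plasminogen activator gene, fell by 0.17 (adjusted p = 0.0140). It no longer passed without control replicate 1 (0.0694), without control replicate 2 (0.0511) or by DESeq2 (0.0914). Of 11 tested genes 2 were higher and 4 lower, with 2 lower without control replicate 2, and the median log2 fold change was 0.01.

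Among 13 angiogenesis inhibitors, 2 were higher and 6 lower, beside 20.5% and 19.0% of all genes tested. The number higher was 4 with library totals only, and 1 by DESeq2, without fed replicate 2 or without control replicate 3. Timp3, a metalloprotease inhibitor that can also block Kdr, rose by 0.65 (SE 0.038, adjusted p = 1.10e-10). Col18a1, the source of endostatin, fell by 0.37, Sema3f by 0.32, Serpinf1, which encodes PEDF, by 0.22 and the thrombospondin gene Thbs1 by 0.17 (adjusted p = 5.12e-05, 5.08e-06, 1.75e-04 and 0.00549), and the call of Thbs1 was lost without fed replicate 3 (0.0536). Among 15 other angiogenic factors, 6 were higher and 2 lower, with a median log2 fold change of 0.01. Fgf2, an endothelial mitogen, rose by 0.74, at 79.7, 80.8 and 77.7 CPM in fed cells against 49.9, 48.1 and 44.5 CPM in control cells (adjusted p = 2.86e-10). Ctgf and Cyr61, matricellular proteins, rose by 0.52 and 0.51 (adjusted p = 9.30e-09 and 1.25e-05). Hgf and Apln fell by 0.50 and 0.29 (adjusted p = 1.57e-09 and 9.75e-06).

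Vegfa and Angptl4 are known targets of the hypoxia-inducible factors, so genes of that response are given beside them. Of 25 hypoxia-inducible genes tested, 17 were lower and 0 higher in fed cells, with a median log2 fold change of -0.27. Of all genes tested, 19.0% were lower and 20.5% higher, with a median of -0.01. Ddit4, Bnip3l, Ero1l, Pdk1 and P4ha2 fell by 1.31, 0.52, 0.48, 0.42 and 0.38 on the log2 scale, with adjusted p between 1.67e-13 and 8.19e-08. Adm, another such gene that also encodes an angiogenic peptide, had a log2 fold change of 0.03 that did not pass. Hif1a, the oxygen-regulated subunit, had 344, 341 and 342 CPM in fed cells against 489, 470 and 471 CPM in control cells and fell by 0.48 (SE 0.035, adjusted p = 2.62e-09). Epas1, which encodes a related subunit, fell by 0.30 (adjusted p = 0.0365) and did not pass without fed replicate 3 (0.110) or control replicate 2 (0.0768). The part of oxygen in the members' values was not tested.

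**Figure D4:**
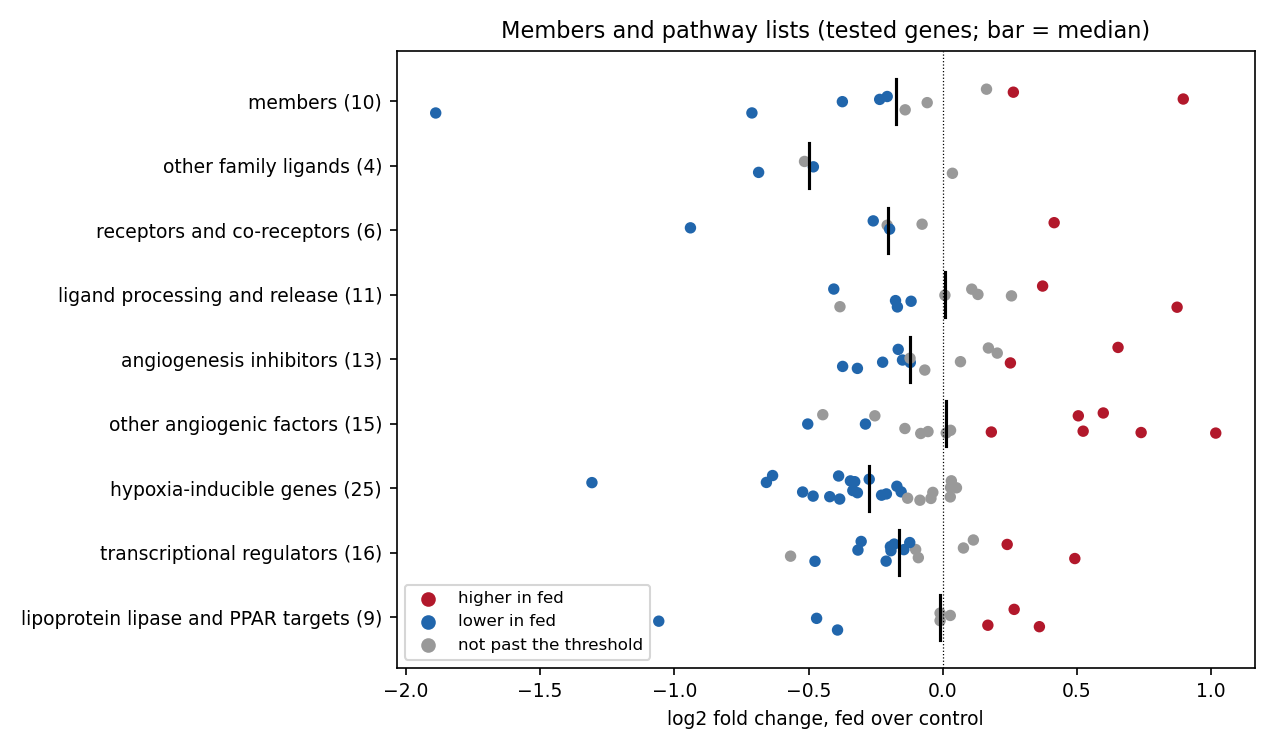
Log2 fold change, fed over control, of the tested genes of the set and of 8 lists of related genes; the bar is the median, and colours mark genes past an adjusted p of 0.05. The hypoxia-inducible genes hold 17 lower and 0 higher genes, while other angiogenic factors hold 6 higher and 2 lower. Of all genes tested, 20.5% were higher and 19.0% lower.

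Of 16 tested transcriptional regulators 2 were higher and 9 lower, beside 20.5% and 19.0% of all genes tested. Foxo1, a factor known to drive Angpt2 in endothelial cells, rose by 0.24 (adjusted p = 0.00247), and Pparg, which can induce Angptl4, rose by 0.49 (adjusted p = 1.08e-07). Foxo3, Arnt and Elk3 fell by 0.32, 0.21 and 0.19 (adjusted p = 1.10e-05, 2.29e-04 and 3.86e-04). Lpl, the lipase that Angptl4 inhibits, had 56.6, 50.1 and 52.7 CPM in fed cells against 120.1, 109.8 and 101.6 CPM in control cells and fell by 1.06 (SE 0.061, adjusted p = 1.51e-08). Other genes of its list went both ways, 3 higher and 3 lower of 9 tested, with Pdk4, Fabp4 and Cpt1a higher by 0.36, 0.27 and 0.17 and Acadm lower at -0.47 on the log2 scale (adjusted p = 2.78e-04, 9.01e-06, 0.00219 and 2.37e-07).

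The genes whose pattern was most like that of Angpt2 were sought by the root mean square difference of log2 CPM over the 6 libraries, each gene centred on its mean, a measure that also weighs the size of the difference. The nearest were Npas2 (0.14), Mmp13 (0.14), Wnt16 (0.20), Arntl (0.26) and Dtx4 (0.29). Npas2 and Arntl are transcription factors of the circadian clock, Mmp13 is a collagenase and Wnt16 a Wnt ligand. Like Angpt2, the genes Npas2, Mmp13 and Wnt16 were lowest in fed replicate 2 and highest in control replicate 1. The search used these same 6 libraries and so favours genes with that order, which therefore adds nothing to their likeness. For Npas2 the order within fed cells rests on 27 counts in replicate 1 against 26 in replicate 2. Mmp13 had 34.3, 25.3 and 31.1 CPM in fed cells and 107, 86.7 and 79.2 CPM in control cells.

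Promoter windows of 300 bases (250 before to 50 after the start site, RefSeq, GRCm38.p6) were matched for 7 members, with 9 windows in all. Angpt1, Angpt2 and Angptl4 had no window in the promoter set used, so their promoters were not searched. Both strands were searched for the hypoxia response core in the forms ACGTG and GCGTG, and ACGTG is also part of the E-box CACGTG. Either form was found in 4 of 9 windows, of Vegfa, Vegfb, Pgf and Flt1, and in 43.8% of 32851 windows of all genes. The windows of Vegfb and Pgf are shown because these genes bind the same receptor and moved in opposite directions, and that of Vegfa because it is the most abundant VEGF ligand among the members. Capitals mark the core on either strand. Vegfa is at chr17:46032328-46032627, Vegfb at chr19:6987602-6987901 and Pgf at chr12:85177264-85177563, all on the minus strand and written 5' to 3' along the gene.
Vegfa: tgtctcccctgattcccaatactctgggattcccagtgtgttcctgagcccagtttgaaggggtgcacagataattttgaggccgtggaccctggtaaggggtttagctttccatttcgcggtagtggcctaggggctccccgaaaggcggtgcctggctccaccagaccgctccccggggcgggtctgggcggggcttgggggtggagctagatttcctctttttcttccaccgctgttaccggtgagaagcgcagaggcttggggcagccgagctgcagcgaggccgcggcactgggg
Vegfb: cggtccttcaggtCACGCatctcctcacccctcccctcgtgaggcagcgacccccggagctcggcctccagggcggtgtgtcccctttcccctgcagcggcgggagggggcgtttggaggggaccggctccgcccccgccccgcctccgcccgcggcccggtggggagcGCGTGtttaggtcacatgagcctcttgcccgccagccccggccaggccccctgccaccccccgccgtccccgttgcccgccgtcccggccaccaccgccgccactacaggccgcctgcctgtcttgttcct
Pgf: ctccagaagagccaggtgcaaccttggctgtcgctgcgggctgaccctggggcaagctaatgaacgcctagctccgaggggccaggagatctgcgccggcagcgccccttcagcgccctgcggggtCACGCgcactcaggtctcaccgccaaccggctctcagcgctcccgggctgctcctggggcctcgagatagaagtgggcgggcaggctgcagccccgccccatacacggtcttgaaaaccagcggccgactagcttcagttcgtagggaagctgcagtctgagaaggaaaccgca
The core occurs at 0 places in this Vegfa window, at 2 in that of Vegfb and at 1 in that of Pgf. A second, internal Vegfa window held 1 match of each form, and a second Pgf window, not shown, held 0 of either form. None of the 9 windows, which leave out Angpt2, held the FOXO motif GTAAACA, which 3.65% of all windows hold, the E-box (7.15%) or the ETS motif CCGGAAG (8.86%). A match or its absence in so short a window says nothing of whether a factor binds there.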

How the data were processed

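RNA was measured in 6 libraries (3 fed, 3 control). The authors deposited unnormalized counts, 1 row per symbol. The tools named in the submitters' processing notes are MultiQC 1.5, Trimmomatic 0.36, STAR 2.6.0c and Subread 1.6.1 with featureCounts, and the build is GRCm38. The sources used here do not say how multiply mapped reads and strand were handled, nor which annotation was used. Per the labels, libraries were stranded and selected for mRNA.

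The test was that of edgeR 4.0.16 (R 4.3.3): filterByExpr, TMM, robust quasi-likelihood F-test of group, no replicate block, Benjamini-Hochberg adjustment over 13092 genes, threshold 0.05. The fit was tested on simulated data that gave every gene the same variation beyond counting noise. That test does not cover genes that vary more between libraries. SEs derive from the F statistic, and 95% intervals from the t distribution with the fit's degrees of freedom. Exon lengths and coordinates are from GENCODE M21 (GRCm38), and the table's Figf was matched to Vegfd. Pairs of libraries of a group differed by more than sampling noise (chi-square over its degrees of freedom 2.65 to 6.14). Names read as dates (27 features, 0.227% of counts) stayed in the fit.

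The members and gene lists were chosen with earlier results of these data known. Named genes were all members, the called genes with the smallest adjusted p, up to 5 per list, a short fixed panel and the 5 genes most like Angpt2 with a mean of at least 2 CPM. Predicted genes, pseudogenes and names read as dates were left out of the search for likeness. Some genes named beside them, such as Mcph1, Lyz2, Adm and markers, fall outside that rule and were named after their values were seen. Alternatives were RLE scaling, library totals only, other filters, DESeq2 1.42.0, the replicate block and each library left out.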

Additional observations from a re-analysis of the deposited data

How the results depend on the processing

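The 7 members past the threshold kept their direction and their call under all 12 alternatives run, and Vegfc, Tek and Flt1 passed under none. The log2 fold change of Angpt2 lay between -2.01 and -1.78, that of Pgf between 0.73 and 0.99 and that of Vegfa between -0.23 and -0.17. The estimates of Tek and Flt1 changed sign when a library was left out (-0.14 to 0.04 and -0.02 to 0.26), with no call either way. Over all genes, 5175 were called, 3724 by DESeq2 and 4145 to 5088 when a library was left out. The replicate block gave 5848 calls and changed no call of a member. Deviations of same-numbered libraries correlated at 0.101, 0.0220 and 0.128, and those of differently numbered libraries at -0.115 to 0.0271. All were weak, and whether the numbers mark pairs is unclear. Under the block 5 rather than 3 receptors and co-receptors were lower, Flt4 among them (log2 fold change -0.21, adjusted p = 0.0258). By level per length, 8 of 10 members kept their place without any 1 control library and 10 without any 1 fed library, as Angpt2 and Vegfc changed places in the order over all 6 libraries. With library totals only, the median log2 fold change of all genes was 0.03 in place of -0.01. Counts under 100 per library limit the precision of Pgf, Tek and Flt1, and of Angpt2 in the fed libraries (74 to 95 counts).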
